A study of Mus musculus with 18 samples.

Results

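Smooth muscle contracts by sliding actin filaments over myosin, and a small set of genes marks this apparatus. The genes described here were the 10 rows of both count tables whose symbol was ACTA2, TAGLN, CNN1, CNN2, MYL9, TPM1, TPM2, MYH11, CALD1 or SRF, out of 24333 symbols shared by both tables. They were taken by symbol, with no threshold on their values. Both cell lines studied, 168FARN and 67NR, derive from mouse mammary tumours and are described as non-metastatic. They were grown in culture in DMEM with 10% FBS. In each line, polyA RNA was sequenced from WT cells, from cells with a knockout (KO) of Kmt2c and from cells with a KO of Kmt2d, 2 genes that encode histone H3 methyltransferases. KO cells were pools sorted after transfection with Cas9 and sgRNAs, not single clones. The WT columns of 168FARN were named for a control sgRNA and those of 67NR simply as WT. Each of the 6 groups had 3 replicates, giving 18 libraries. The study defines its replicates as collections of a cell line with a passage of the cells between them, so p-values measure the spread between successive collections of the same lines.

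In smooth muscle, ACTA2 encodes smooth muscle alpha actin and MYH11 the smooth muscle myosin heavy chain, which together form the contractile filaments. MYL9 encodes a regulatory myosin light chain, TPM1 and TPM2 encode tropomyosins that lie along actin, and CNN1, CNN2, CALD1 and TAGLN encode the actin-binding proteins calponin 1, calponin 2, caldesmon and transgelin. The transcription factor SRF (serum response factor) switches on many of these genes through a DNA element called the CArG box. In the mammary gland, ACTA2, MYH11 and CNN1 mark myoepithelial cells, while TPM1, CALD1 and CNN2 are also used by the cytoskeleton of many other cell types.

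Depth was ample for abundant genes and limited for genes near 0. Total counts per library lay between 14359760 and 43427382 in 168FARN and between 40951775 and 79251530 in 67NR. Levels are given as CPM (counts scaled to a common library size) after TMM scaling over all libraries, and 3 counts in a library, taken as the floor, corresponded to 0.0729 to 0.217 CPM in 168FARN and 0.0354 to 0.0736 CPM in 67NR. Among counts of 1 to 19, 38.4% to 46.3% were even in 168FARN and 91% to 96.1% in 67NR, the latter as they would be where both mates of a read pair were counted. In that case totals and floors of 67NR count mates rather than pairs, and they are not in the same unit as those of 168FARN. Replicate 3 stood apart in both lines, and its values are named where they bear on a result. In 67NR Kmt2d KO replicate 3, the ribosomal RNA row RN45S held 28.7% of all counts, against 0.458% to 4.96% in the other libraries. Counts over the whole targeted genes were not called lower in the KO libraries. KMT2C was at 80.4 ± 27.7 CPM in 168FARN Kmt2c KO and 91.2 ± 38.7 in 168FARN WT, and KMT2D was at 109 ± 28.7 CPM in 67NR Kmt2d KO and 97.8 ± 15.7 in 67NR WT (SD, n = 3). KMT2C was called higher in 67NR Kmt2c KO (log2 fold change 0.63, edgeR adjusted p = 0.00669). It was also called higher in 67NR Kmt2d KO (0.80, adjusted p = 0.00314), where it was not the targeted gene. KMT2D was at 236 ± 85.6 CPM in 168FARN Kmt2d KO and 147 ± 32.3 in 168FARN WT (SD, n = 3), without a call. The sgRNAs were aimed at exon 1, and such counts do not show the edited bases, so they check the genotype labels in neither direction. The study itself sequenced the targeted regions and reported mostly mutant reads in each KO pool, with the lowest share in 67NR Kmt2c KO. It also reported less of the targeted proteins by immunoblot.

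The promoters are shown first because SRF, itself a member, is described above as a factor that switches on many of these genes. Whether it controls them in these cells was not tested. RefSeq promoter windows (GRCm38.p6, 250 bases before to 50 after the start of transcription) were found for 8 of the 10 genes, as 9 windows, and TAGLN and MYH11 had no entry. An exact match to the CArG box, searched on both strands, was present in 3 of the 9 windows, against 535 of 32851 windows of all genes (1.63%). The windows with a match belonged to SRF itself, CNN2 and MYL9, and those of ACTA2 and TPM2 are printed beside them as the windows of the gene that names the set and of the member that differed most between groups. Capitals mark the matches, all of the form CCWWWWWWGG, with W for A or T. Stretches that depart from this form by a letter were left in lower case, such as ccctatatgg and ccttgtttgg in the ACTA2 window. Absence of a match therefore says only that the exact form does not lie in this window, not that the promoter has no CArG box.
SRF promoter, chr17:46556113-46556412, minus strand: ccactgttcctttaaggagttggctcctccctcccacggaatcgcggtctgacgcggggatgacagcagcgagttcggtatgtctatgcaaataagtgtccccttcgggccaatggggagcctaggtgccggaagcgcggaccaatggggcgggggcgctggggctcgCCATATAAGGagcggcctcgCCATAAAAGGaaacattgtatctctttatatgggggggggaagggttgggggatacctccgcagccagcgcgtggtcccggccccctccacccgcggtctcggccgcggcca
CNN2 promoter, chr10:79988350-79988649, plus strand: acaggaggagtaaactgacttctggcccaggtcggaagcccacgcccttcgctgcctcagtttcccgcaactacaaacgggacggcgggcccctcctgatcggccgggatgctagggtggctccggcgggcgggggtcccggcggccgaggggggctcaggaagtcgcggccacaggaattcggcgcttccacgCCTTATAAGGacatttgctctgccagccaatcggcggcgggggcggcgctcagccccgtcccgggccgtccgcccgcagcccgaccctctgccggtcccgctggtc
MYL9 promoter, chr2:156775214-156775513, plus strand: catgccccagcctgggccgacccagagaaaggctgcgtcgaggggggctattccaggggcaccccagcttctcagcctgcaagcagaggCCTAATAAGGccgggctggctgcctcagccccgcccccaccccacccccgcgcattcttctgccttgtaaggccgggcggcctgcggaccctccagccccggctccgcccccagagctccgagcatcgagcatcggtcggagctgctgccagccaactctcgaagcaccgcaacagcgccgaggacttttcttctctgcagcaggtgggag
ACTA2 promoter, chr19:34255324-34255623, minus strand: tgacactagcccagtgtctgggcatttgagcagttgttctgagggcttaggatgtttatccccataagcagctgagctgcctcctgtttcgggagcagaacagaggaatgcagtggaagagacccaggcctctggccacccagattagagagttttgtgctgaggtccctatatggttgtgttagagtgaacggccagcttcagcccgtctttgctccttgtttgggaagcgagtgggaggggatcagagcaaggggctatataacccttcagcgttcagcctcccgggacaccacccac
TPM2 promoter, chr4:43523505-43523804, minus strand: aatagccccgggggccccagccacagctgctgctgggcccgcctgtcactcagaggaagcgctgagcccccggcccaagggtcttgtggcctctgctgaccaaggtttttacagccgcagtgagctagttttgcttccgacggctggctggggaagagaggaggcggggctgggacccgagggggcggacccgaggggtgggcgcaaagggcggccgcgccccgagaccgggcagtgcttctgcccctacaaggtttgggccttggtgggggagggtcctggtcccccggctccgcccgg

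The SRF window held 2 matches, starting at positions -82 and -62 from the start of transcription, CNN2 held 1 at -56 and MYL9 held 1 at -161. These 3 genes were at quite different levels in the same cells. CNN2 lay between 69.7 and 159 CPM and SRF between 18.1 and 35.7 CPM over the 18 libraries, whereas MYL9 was at 0 counts in all 9 libraries of 168FARN.

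The data went against the name of the set. Genes that define smooth muscle were near 0 in all groups, and the set was carried by genes with broad cytoskeletal use. ACTA2, TAGLN, CNN1, MYL9 and MYH11 stayed at or below 0.490 CPM in each of the 18 libraries. TPM1, CALD1, TPM2, CNN2 and SRF were above 3 CPM in each of them. Therefore 5 of the 10 members passed the filter on low counts in either line, and 6 passed it over both lines together, with TAGLN as the sixth. In the main fits, ACTA2, CNN1, MYL9 and MYH11 have counts but no test across all genes. TAGLN was tested in these fits only between the lines, where it was not called (0.32, adjusted p = 0.849). Its KO effects were not called as different between the lines (-1.25, adjusted p = 0.747 for Kmt2c, and -2.58, adjusted p = 0.496 for Kmt2d). MYOCD, the cofactor of SRF that drives smooth muscle genes, was also near 0, with a highest group mean of 0.0369 CPM.

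**Figure D1:**
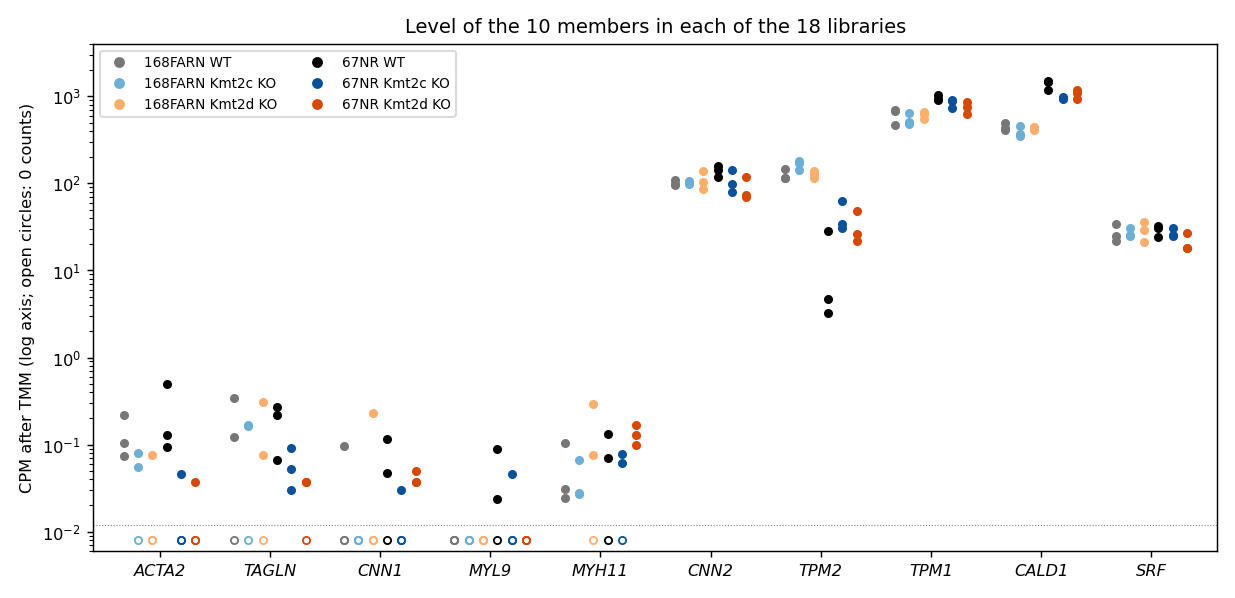
CPM after TMM scaling on a log axis for the 10 members (horizontal axis), with 1 point per library coloured by group and open circles for 0 counts. ACTA2, TAGLN, CNN1, MYL9 and MYH11 lie at or below 0.490 CPM in all 18 libraries, and the other 5 members lie above 3 CPM.

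ACTA2 had 3, 7 and 3 counts in 168FARN WT replicates 1 to 3, then 0, 3 and 2 counts in Kmt2c KO and 0, 0 and 2 in Kmt2d KO. In 67NR, ACTA2 had 8, 9 and 22 counts in WT, 0, 0 and 2 in Kmt2c KO and 2, 0 and 0 in Kmt2d KO. All 3 WT libraries of 67NR therefore lay above all 6 KO libraries, while the groups of 168FARN overlapped. How often genes in general failed to overlap was not counted, here or in the comparisons below. A lack of overlap therefore describes the values only. With 67NR counts halved to pairs, WT over KO gave a ratio of 18.8 (95% Clopper-Pearson interval 3 to 778) for Kmt2c and 15.0 (2.39 to 620) for Kmt2d, both intervals covering counting error only. A two-sided exact permutation test of CPM gave p = 0.1 for each, the smallest p that 3 against 3 libraries allow. ACTA2 lies on chromosome 19 of mm9, from 34315580 to 34329826 on the minus strand, and shares 0.404% of its 50-base words with ACTG1.

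TAGLN had 23, 15 and 3 counts in 67NR WT, 4, 2 and 4 in Kmt2c KO and 2, 2 and 0 in Kmt2d KO. WT and Kmt2d KO did not overlap (exact permutation p = 0.1, the smallest possible), with a ratio of 7.85 (1.92 to 69.1), but WT and Kmt2c KO did, through WT replicate 3 (p = 0.2, exact permutation test). In 168FARN, TAGLN had 0, 11 and 5 counts in WT, 0, 6 and 6 in Kmt2c KO and 7, 0 and 2 in Kmt2d KO, with full overlap. TAGLN (chromosome 9, 45737711 to 45744141, minus strand) overlaps Pcsk7 on the other strand by 65 bases, and the strand setting of the counting was not given in the sources used here.

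CNN1, MYL9 and MYH11 were lower still or more scattered. Summed over the 3 libraries of a group, CNN1 had 12 counts in 67NR WT and 2 and 6 in the Kmt2c and Kmt2d KOs, and in 168FARN 4, 0 and 6 in the same order. MYL9 had 6, 2 and 0 counts in 67NR. MYH11 had 12, 10 and 20 counts in 67NR and 5, 4 and 6 in 168FARN, with no higher level in WT than in Kmt2d KO in either line. For these 3 genes WT and KO overlapped in both lines. At this depth, no difference in them was detectable.

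Compared per length, with CPM divided by the kilobases of merged exons, the broad genes ranked far above the smooth muscle genes. In 67NR WT, CALD1 was at 182 ± 22.5 CPM per kb, TPM1 at 148 ± 11.4, CNN2 at 56.8 ± 8.11, SRF at 7.13 ± 1.01 and TPM2 at 4.15 ± 4.84 (SD, n = 3). In 168FARN WT, TPM1 was highest at 94.8 ± 19.4 CPM per kb, followed by CALD1 at 57.9 ± 5.59, TPM2 at 43.1 ± 6.25, CNN2 at 41.2 ± 2.82 and SRF at 6.59 ± 1.54. TPM2 and CNN2 did not differ beyond their spread there, nor did SRF and TPM2 in 67NR WT. By the longest transcript in place of the merged exons, the values of TPM1 and CALD1 were higher, at 332 and 292 CPM per kb in 67NR WT, and their order turned. ACTA2 reached 0.134 CPM per kb in 67NR WT. The non-muscle paralogues held the bulk of this RNA, with ACTB at 1735 CPM per kb, TAGLN2 at 207, CNN3 at 232 and MYL6 at 416 in the same cells.

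Between the WT groups of both lines, 67NR WT had more CALD1 and TPM1 and less TPM2 than 168FARN WT. CALD1 was at 430, 494 and 412 CPM in 168FARN WT and at 1481, 1508 and 1196 in 67NR WT, without overlap (log2 fold change 1.69, SE 0.17, adjusted p = 1.39e-06). TPM1 was at 701, 672 and 470 CPM in 168FARN WT and at 900, 935 and 1042 in 67NR WT (0.69, SE 0.20, adjusted p = 0.0138). The TPM1 call was lost without 168FARN WT replicate 3, the lowest of these libraries (0.46, adjusted p = 0.111). TPM2 was at 114, 116 and 146 CPM in 168FARN WT but at 4.66, 3.27 and 28.3 in 67NR WT (-3.32, SE 0.64, adjusted p = 6.81e-04). The value was -4.25 with the replicate block and -4.94 without 67NR WT replicate 3, and it was called in both. Replicate 3 of 67NR WT thus held far more TPM2 than the other 2 libraries of that group.

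CNN2 was higher in each 67NR WT library, at 141, 119 and 159 CPM, than in the 168FARN WT libraries, at 97.1, 97.8 and 109, but was not called (0.51, adjusted p = 0.133). SRF was at 22.0 to 34.0 CPM in 168FARN WT and 24.5 to 32.4 in 67NR WT, with overlap (0.16, adjusted p = 0.630). In all, 2 of 6 tested members were called higher and 1 lower, where calling required an adjusted p under 0.1 by edgeR's quasi-likelihood test and an absolute log2 fold change over 0.6. Over all genes, 22.3% were called higher and 16.9% lower in this comparison, so the share of members called was not far from that of genes in general. The lines also differed in cell type markers, with a summed level of 7 luminal epithelial markers of 128 to 408 CPM in 168FARN WT and 2497 to 3917 CPM in 67NR WT. In 168FARN WT this sum was KRT8 almost alone (128 to 408 CPM), the other 6 markers being at most 0.122 CPM, and KRT8 itself was not called between the lines (1.03, adjusted p = 0.296). Their part in the result was not tested, and in bulk samples fewer cells of a type and less RNA per cell cannot be told apart.

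**Figure D2:**
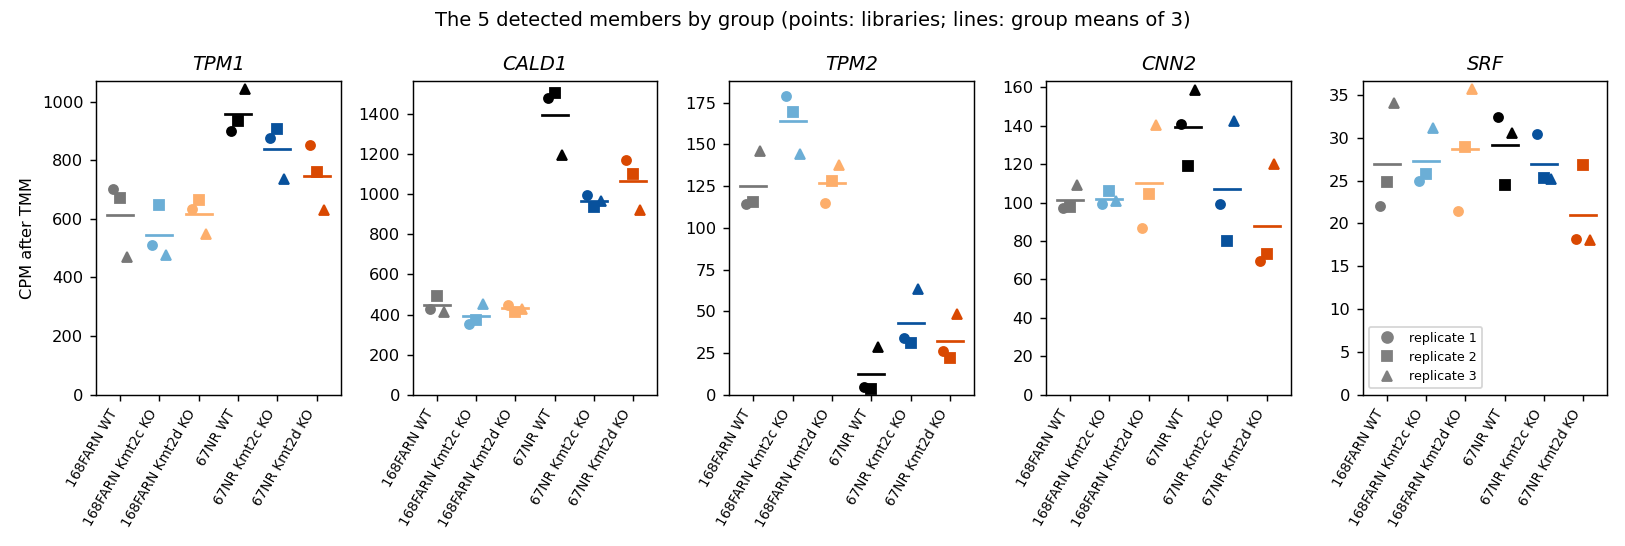
CPM after TMM scaling (vertical axes from 0, one scale per panel) for the 5 detected members in the 6 groups, with symbols for the replicate numbers and lines for group means (n = 3). TPM2 is low in 67NR WT except in replicate 3, and CALD1 is above 900 CPM in all 67NR libraries and below 500 CPM in all 168FARN libraries.

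In 168FARN, none of the 5 tested members was called in either KO. TPM1 lay between 470 and 701 CPM in WT, 477 and 647 in Kmt2c KO and 548 and 666 in Kmt2d KO. CALD1 lay between 412 and 494 CPM in WT, 352 and 453 in Kmt2c KO and 414 and 450 in Kmt2d KO. TPM2 came nearest to a change, at 179, 170 and 144 CPM in Kmt2c KO against 114, 116 and 146 in WT (0.40, SE 0.17, adjusted p = 0.796). It exceeded the WT library of the same number in replicates 1 and 2, by 1.57 and 1.47 times, and not in replicate 3, at 0.985 times.

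The other 168FARN values lay near WT. Over the 5 members, log2 fold changes ran from -0.18 to 0.40 in Kmt2c KO and from -0.03 to 0.15 in Kmt2d KO. In both comparisons 0 of 5 were called by edgeR and by DESeq2, with 1 and 0 at an unadjusted p under 0.05, against 0.359% and 0.286% of all genes called. With the replicate number as a block, 7.23% and 5.90% of all genes were called but still 0 members. TPM2 then had an adjusted p of 0.0704 in Kmt2c KO, with a fold change under the threshold. Between both KOs of 168FARN 0 of 5 members were called by edgeR and DESeq2 and 0 had an unadjusted p under 0.05 (0.253% of all genes called), although TPM2 did not overlap, with 144 to 179 CPM in Kmt2c KO and 115 to 137 in Kmt2d KO (0.36, adjusted p = 1.000).

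In 67NR, TPM2 rose in Kmt2c KO and was the single member called without the block. TPM2 was at 4.66, 3.27 and 28.3 CPM in WT, 34.1, 30.7 and 63.5 in Kmt2c KO and 26.2, 21.9 and 48.1 in Kmt2d KO. WT did not overlap with Kmt2c KO but did overlap with Kmt2d KO, through WT replicate 3. The log2 fold change was 1.89 (SE 0.77, adjusted p = 0.0865) in Kmt2c KO and 1.46 (SE 0.76, adjusted p = 0.208) in Kmt2d KO. Even after the rise, TPM2 stayed below its level in each 168FARN library.

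Replicate 3 was higher in TPM2 in all 3 groups of 67NR, so the replicate number mattered. Within numbers, Kmt2c KO exceeded WT by 7.33, 9.36 and 2.24 times in replicates 1, 2 and 3, and Kmt2d KO by 5.63, 6.69 and 1.70 times. With the replicate block, TPM2 was called in both KOs, at 2.39 (SE 0.40, adjusted p = 0.00108) in Kmt2c KO and 1.95 (SE 0.40, adjusted p = 0.00446) in Kmt2d KO. Without 67NR WT replicate 3, the values were 3.52 (adjusted p = 8.18e-04) and 3.08 (adjusted p = 0.00233). Without any one of the 5 other libraries compared, the Kmt2c call was lost, with adjusted p between 0.116 and 0.214, as it was with no filter on low counts (0.136) and with only the 6 compared libraries (0.117).

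**Figure D3:**
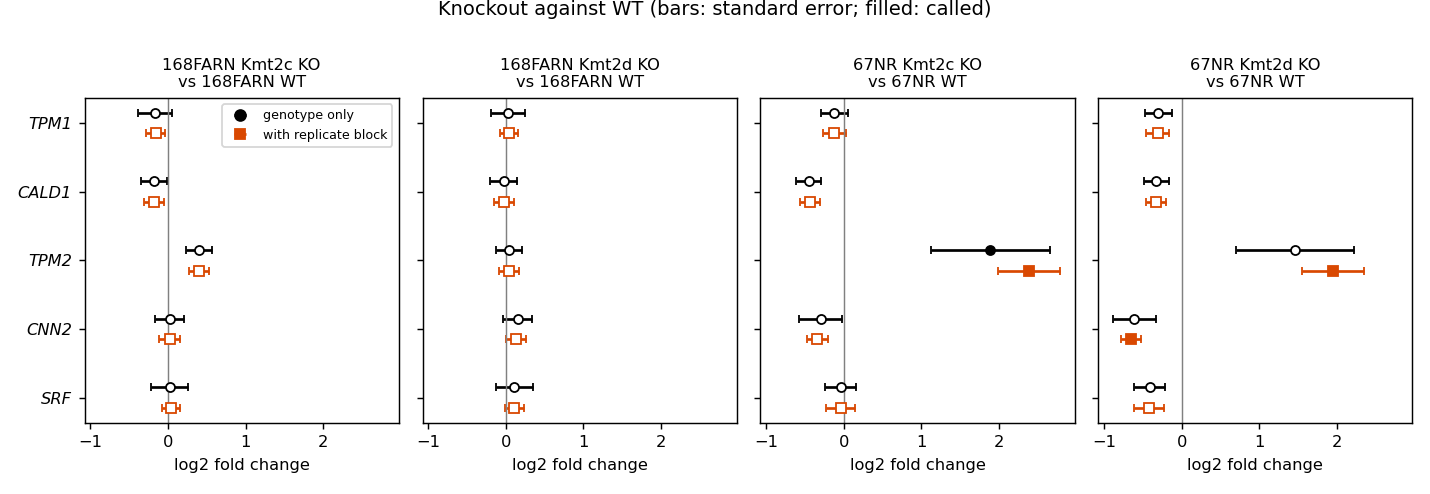
Log2 fold change of each KO against WT of its line (horizontal axes, bars for the standard error) for the 5 tested members, with genotype as the only factor (black) and with the replicate block (orange), filled where called. TPM2 in 67NR stands near 2 with the block in both KOs, and CNN2 is called lower with the block in 67NR Kmt2d KO.

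CALD1 and CNN2 had log2 fold changes below 0 in both KOs of 67NR, and neither was called without the block. CALD1 was at 997, 939 and 969 CPM in Kmt2c KO and 1170, 1104 and 922 in Kmt2d KO, below all 3 WT libraries (1481, 1508 and 1196) in both. The share of all genes that lay apart in this way was not counted. The log2 fold changes of CALD1, -0.45 (SE 0.16, adjusted p = 0.0547) and -0.33 (SE 0.16, adjusted p = 0.176), did not reach the fold threshold. CNN2 was at 141, 119 and 159 CPM in WT, 99.1, 79.8 and 143 in Kmt2c KO and 69.7, 73.4 and 120 in Kmt2d KO, with overlap in both but a lower level within every replicate number. Its log2 fold change in Kmt2d KO was -0.61 (SE 0.28, adjusted p = 0.154), and with the replicate block it was called lower (-0.65, SE 0.13, adjusted p = 0.00278). Without Kmt2d KO replicate 3 it was called without the block too (-0.90, adjusted p = 0.0424).

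TPM1 and SRF were not called in 67NR. TPM1 was at 875, 908 and 737 CPM in Kmt2c KO (-0.12, adjusted p = 0.645) and at 853, 759 and 632 in Kmt2d KO (-0.30, adjusted p = 0.238), the latter all below the WT libraries. SRF was at 32.4, 24.5 and 30.6 CPM in WT, 30.5, 25.3 and 25.1 in Kmt2c KO and 18.1, 26.8 and 18.1 in Kmt2d KO, with overlap (-0.04 and -0.41, adjusted p = 0.914 and 0.182).

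Counts of called members were close to those of genes in general. In 67NR Kmt2c KO, 1 of 5 tested members was called higher and 0 lower, against 17.9% and 17.4% of all genes. In 67NR Kmt2d KO it was 0 in each direction by edgeR and by DESeq2, with 0 at an unadjusted p under 0.05, against 13.9% and 11.6%. With the block, 1 of 5 was called higher and 0 lower in Kmt2c KO (21.3% and 19.9% of all genes), and 1 higher and 1 lower in Kmt2d KO (17.4% and 15.4%). No member differed between both KOs of 67NR (0 of 5 by edgeR and DESeq2 and 0 at an unadjusted p under 0.05, with 1.41% of all genes called).

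The difference between the lines in the KO effect was tested as an interaction over all 18 libraries. No member of 6 was called for Kmt2c (16.0% of all genes) or for Kmt2d (10.6%), with 0 and 1 at an unadjusted p under 0.05 and 0 by DESeq2, which gave TPM2 no adjusted p in either. With the replicate block the test called TPM2 for Kmt2c (1.90, adjusted p = 0.00584) and, for Kmt2d, TPM2 (1.84, adjusted p = 0.00921) and CNN2 (-0.84, adjusted p = 0.00377), where 34.6% and 28.4% of all genes were called. Without 67NR WT replicate 3, TPM2 was called without the block too (3.04, adjusted p = 6.85e-04, and 2.99, adjusted p = 0.00120).

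VIM was the gene whose pattern over the 18 libraries lay nearest to TPM2, by the root-mean-square difference of log2(CPM + 1) after each gene's mean was removed (0.320). VIM encodes vimentin, the intermediate filament protein of mesenchymal cells, and TPM2 was chosen for this comparison after its values were seen. VIM was at 261, 283 and 1256 CPM in 67NR WT, 2560, 2580 and 4154 in Kmt2c KO and 2032, 1951 and 3938 in Kmt2d KO. As with TPM2, replicate 3 was highest in each group of 67NR, and all 168FARN libraries were higher than those of 67NR, at 5885 to 8943 CPM. VIM was picked by its likeness to TPM2 over these same libraries, so the shared pattern follows from that choice. The next nearest genes were 4930447F24RIK (0.418) and FIGF (0.525). For ACTA2 the nearest were UBE4B, UTP11L and RPL7, and for TAGLN they were ZFP637, SIN3A and THUMPD2. With so few counts such genes are merely even in level, and none of the 6 remained among the nearest 3 with a pseudocount of 0.1 in place of 1.

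**Figure D4:**
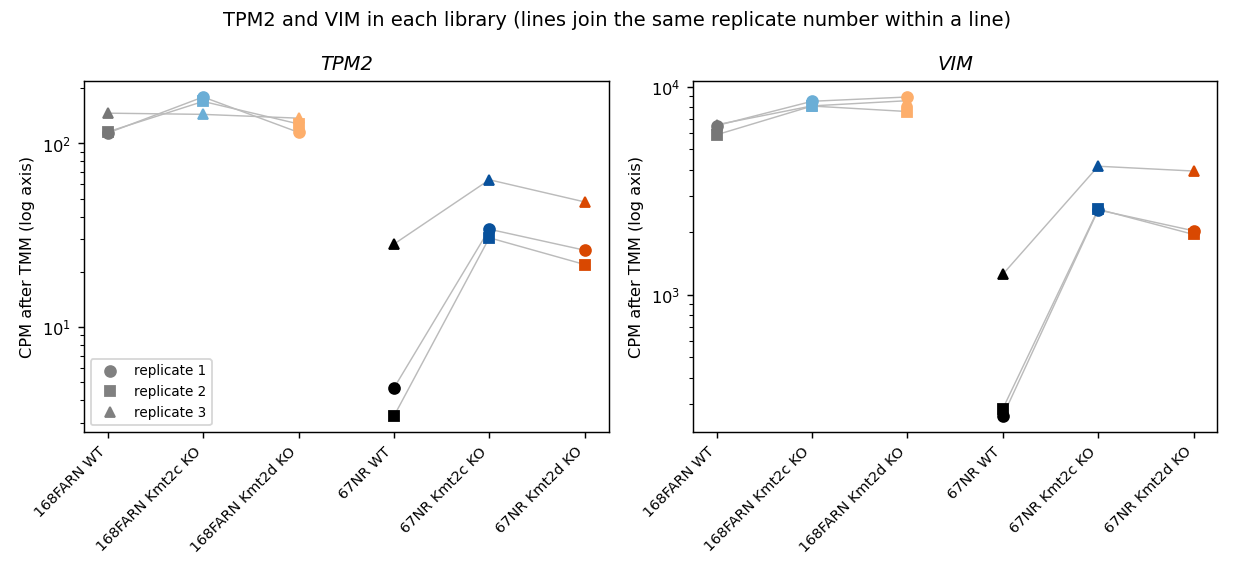
CPM after TMM scaling on log axes for TPM2 (left) and VIM (right) in each library, with grey lines joining the same replicate number within a line. In 67NR both genes are lowest in WT replicates 1 and 2, and each KO library lies above the WT library of its own number, while TPM2 in WT replicate 3 (28.3 CPM) lies above Kmt2d KO replicates 1 and 2 (26.2 and 21.9 CPM).

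The wider set of smooth muscle contractile genes moved in both directions in 67NR. Of 16 genes, 11 were tested, and 5 were called higher and 5 lower in Kmt2c KO, with 4 higher and 3 lower in Kmt2d KO (5 lower with the block). Over all genes tested, 17.9% were called higher and 17.4% lower in Kmt2c KO, and 13.9% and 11.6% in Kmt2d KO, and these shares stand beside the counts of all lists that follow. Without 67NR WT replicate 2, 2 genes of this list were called higher in Kmt2d KO. The median log2 fold change was 0.38 and 0.25, against -0.02 over all genes tested in each comparison. DES, which encodes the muscle intermediate filament protein desmin, rose most. DES was at 2.89, 1.75 and 1.52 CPM in 67NR WT, 32.7, 25.0 and 30.0 in Kmt2c KO and 23.2, 23.9 and 25.1 in Kmt2d KO, without overlap (3.91, SE 0.26, adjusted p = 1.00e-05, and 3.61, SE 0.26, adjusted p = 2.35e-05). Its level in 67NR KO cells was thus near that of 168FARN WT replicates 1 and 2, at 26.8 and 29.6 CPM, while replicate 3 of that group was at 7.51.

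HSPB6, a small heat shock protein of muscle, and SMTN, the actin-binding smoothelin, rose as well. HSPB6 changed by 1.41 (adjusted p = 0.0126) and 1.13 (adjusted p = 0.0447) and SMTN by 1.31 (adjusted p = 0.00477) and 0.80 (adjusted p = 0.0565) in Kmt2c and Kmt2d KO. SYNM, which encodes the desmin-binding filament protein synemin, rose in Kmt2c KO (1.88, adjusted p = 0.0917). NEXN, an actin-binding protein of muscle Z-discs, fell in both, by 3.08 and 2.32 on the log2 scale (adjusted p = 0.00454 and 0.0222). PDLIM7, a scaffold of actin filaments, fell by 1.31 and 1.39 (adjusted p = 0.00741 and 0.00877). CSRP1, a LIM domain protein of actin filaments, fell by 1.15 and 0.91 (adjusted p = 0.00848 and 0.0344). SYNPO2, an actin-bundling protein, fell by 4.98 in Kmt2c KO (adjusted p = 0.0134), from 0.259 to 0.606 CPM in WT, and PPP1R14A, an inhibitor of myosin phosphatase, fell by 2.76 (adjusted p = 0.00644), also from under 1 CPM. LMOD1 and KCNMB1, which are restricted to smooth muscle, had group means of at most 0.14 CPM and of 0.

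In 168FARN, none of the 10 tested genes of that list was called in either KO. With the replicate block, NEXN was called higher in Kmt2c KO (0.68, adjusted p = 0.0376), and DES (-0.70, adjusted p = 0.0501) and SYNM (-0.98, adjusted p = 0.0477) were called lower in Kmt2d KO.

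**Figure D5:**
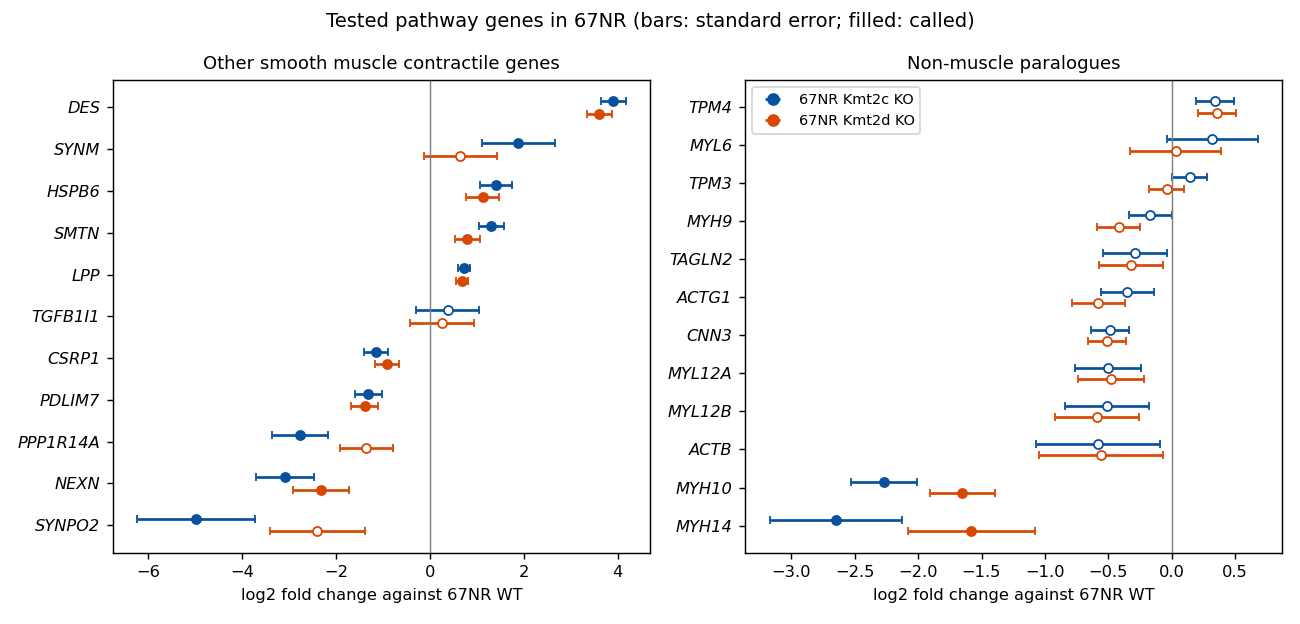
Log2 fold change against 67NR WT (horizontal axes, bars for the standard error) for the tested genes of 2 lists, other smooth muscle contractile genes (left) and non-muscle paralogues of the members (right), in Kmt2c KO (blue) and Kmt2d KO (orange), filled where called. DES lies above 3.5 in both KOs, and MYH10 and MYH14 are the paralogues called lower.

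Among 13 non-muscle paralogues, 12 were tested, 0 were called higher and 2 lower in each KO of 67NR, a share lower that is near the 17.4% and 11.6% of all genes. In Kmt2d KO the 2 lower calls became 1 without Kmt2d KO replicate 1, WT replicate 1 or WT replicate 2. Both were non-muscle myosin heavy chains. MYH10 (non-muscle myosin IIB) was at 115, 118 and 188 CPM in WT, 32.3, 23.5 and 27.1 in Kmt2c KO (-2.27, SE 0.26, adjusted p = 2.02e-04) and 35.1, 39.8 and 54.3 in Kmt2d KO (-1.65, SE 0.26, adjusted p = 0.00193), without overlap. MYH14 (non-muscle myosin IIC) was at 107, 77.8 and 26.4 CPM in WT and fell by 2.65 (adjusted p = 0.00418) and 1.58 (adjusted p = 0.0515). MYH9, the most abundant of these heavy chains, had group means of 635 CPM in WT and of 534 and 455 CPM in the Kmt2c and Kmt2d KOs and was not called.

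In 168FARN, MYH10 was far lower to begin with and was lower again in Kmt2d KO. It was at 4.27, 5.55 and 5.52 CPM in WT, 2.35, 3.97 and 4.92 in Kmt2c KO and 0.886, 1.44 and 1.18 in Kmt2d KO. WT and Kmt2d KO did not overlap, but the difference narrowly missed the call (-2.11, SE 0.36, adjusted p = 0.108) and passed it with the block (-2.13, adjusted p = 2.98e-04). MYH14 was also called lower with the block in 168FARN, in Kmt2c KO (-0.84, adjusted p = 0.0133) and Kmt2d KO (-1.28, adjusted p = 0.00185). The actins ACTB and ACTG1, the tropomyosins TPM3 and TPM4 and the light chains MYL6, MYL12A and MYL12B were called in no KO comparison without the block. ACTG1 was called lower in 67NR Kmt2d KO with it (-0.60, adjusted p = 0.0231).

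Regulators of myosin light chain phosphorylation and of actin turnover were the next list. Of 19 genes, all tested, 5 were called higher and 2 lower in 67NR Kmt2c KO and 4 higher and 1 lower in Kmt2d KO, with none in 168FARN. The counts are to be read against 17.9% higher and 17.4% lower over all genes in Kmt2c KO and 13.9% and 11.6% in Kmt2d KO. The 2 lower calls in Kmt2c KO became 0 or 1 whichever of the 6 libraries was left out, and the 4 higher calls in Kmt2d KO became 2 without Kmt2d KO replicate 2. RHOB, a small GTPase, rose by 1.39 (adjusted p = 4.69e-04) and 0.97 (adjusted p = 0.00528), CFL2, the muscle cofilin, by 1.02 (adjusted p = 8.19e-04) and 0.86 (adjusted p = 0.00341), and LIMK1, a kinase that inhibits cofilin, by 1.13 in Kmt2c KO (adjusted p = 0.00452). ROCK2, a kinase that acts below RhoA, rose by 0.80 and 0.73 (adjusted p = 0.0235 and 0.0476). PPP1R12B, a myosin phosphatase subunit, fell by 0.62 and 0.96 (adjusted p = 0.0748 and 0.0198), and ARHGEF1, which activates RhoA, fell by 0.85 in Kmt2c KO (adjusted p = 0.0576). MYLK, the myosin light chain kinase, was at 13.9, 15.4 and 40.1 CPM in WT and 37.2, 37.9 and 61.0 in Kmt2c KO (1.05, adjusted p = 0.110) and was called higher with the block (1.18, adjusted p = 1.21e-04).

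Of 8 SRF cofactors, 6 were tested, and ELK3 was the one called, in 67NR Kmt2c KO (0.75, adjusted p = 0.00488). MKL1 and MKL2, which carry the signal from actin to SRF, had group means between 23.1 and 34.4 CPM in all 6 groups. Of 11 cytoskeletal and immediate early SRF targets, 1 was called higher and 2 lower in 67NR Kmt2c KO and 1 in each direction in Kmt2d KO, counts near or below the shares over all genes (17.9% and 17.4%, and 13.9% and 11.6%). The lower call in Kmt2d KO was lost without replicate 1 or 2 of either group. EGR1, an immediate early transcription factor, was at 39.7, 42.1 and 46.7 CPM in 67NR WT, 144, 152 and 154 in Kmt2c KO and 144, 147 and 154 in Kmt2d KO (1.89, SE 0.13, adjusted p = 1.19e-05, and 1.85, SE 0.13, adjusted p = 2.18e-05). CTGF, a secreted matricellular protein, was at 412, 465 and 358 CPM in WT, 3.23, 3.30 and 54.0 in Kmt2c KO and 18.4, 15.8 and 77.1 in Kmt2d KO (-4.27, adjusted p = 0.0209, and -3.41, adjusted p = 0.0589). FOS fell by 1.75 in Kmt2c KO (adjusted p = 0.00145). VCL, FLNA, ACTN1, ZYX and TLN1, which build focal adhesions and actin crosslinks, were not called in either KO of either line, and ZYX was called higher with the block in 67NR Kmt2c KO (0.67, adjusted p = 0.00614).

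Striated muscle genes, which include relatives of the smooth muscle actin and myosin and also the troponins of striated muscle, were examined as well. Of 10 genes, 4 were tested in 67NR, with 2 called higher and 2 lower in each KO, where 17.9% and 17.4% of all genes were called in Kmt2c KO and 13.9% and 11.6% in Kmt2d KO. The 2 lower calls became 1 in Kmt2c KO without replicate 1 or 2 of the KO or WT replicate 1, and in Kmt2d KO without any KO replicate or WT replicate 1. TNNT2, cardiac troponin T, was at 164, 137 and 306 CPM in 67NR WT, 15.1, 13.5 and 28.0 in Kmt2c KO and 31.0, 32.5 and 55.2 in Kmt2d KO (-3.35, adjusted p = 3.95e-04, and -2.30, adjusted p = 0.00411). MYH3, the embryonic myosin heavy chain, rose from 0.115 to 0.267 CPM in WT to 2.20 to 2.55 in Kmt2c KO and 1.45 to 2.07 in Kmt2d KO (3.85, adjusted p = 1.37e-04, and 3.37, adjusted p = 4.98e-04). TNNC1, troponin C of slow muscle, fell by 0.93 in each (adjusted p = 0.0442 and 0.0595), and TNNT1 was at 0 counts in WT and at most 0.294 CPM in the KOs. In 168FARN, MYH3 was at 0.851 to 1.10 CPM in WT, 0.270 to 0.636 in Kmt2c KO and 0.133 to 0.190 in Kmt2d KO. None of the 3 striated muscle genes tested there was called without the block (0.359% and 0.286% of all genes). With it, 1 was called lower in Kmt2c KO (7.23% of all genes called), and 1 higher and 1 lower in Kmt2d KO (5.90%).

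Markers of other cell types moved with genotype in 67NR beside these results. The summed level of 7 luminal epithelial markers was 2497 to 3917 CPM in WT, 531 to 790 in Kmt2c KO and 947 to 1577 in Kmt2d KO, with 7 and 6 of 7 called lower. CDH1, which encodes E-cadherin, fell by 2.80 and 1.36 on the log2 scale (adjusted p = 1.10e-05 and 8.50e-04). The 8 fibroblast markers summed to 14.2 to 21.6 CPM in WT, 129 to 219 in Kmt2c KO and 97.0 to 151 in Kmt2d KO, with 4 of 8 called higher in each and 0 lower. With the replicate block, 5 were called higher in each, and COL1A1 (-0.67, adjusted p = 0.0697) and FAP (-2.39, adjusted p = 0.0410) were called lower in Kmt2c KO. PDGFRA made up most of the sum, at 119 to 206 CPM in Kmt2c KO and 86.0 to 139 in Kmt2d KO. PDGFRA, a growth factor receptor of fibroblasts, rose by 3.84 and 3.28 (adjusted p = 1.55e-05 and 5.41e-05), and LUM and DCN, 2 matrix proteoglycans, rose by 5.09 and 4.10 in Kmt2c KO. The 5 basal and myoepithelial markers summed to 10.5 to 23.4 CPM in WT, 0.610 to 2.59 in Kmt2c KO and 1.11 to 5.89 in Kmt2d KO, and at least 1 of the 5 was at 0 in each group. Sums in WT, Kmt2c KO and Kmt2d KO were at most 2.88, 3.37 and 3.48 CPM for 5 pericyte markers and at most 0.721, 2.14 and 1.47 CPM for 4 endothelial markers. In 168FARN, COL3A1 was called lower (-2.74, adjusted p = 0.0295) and CDH5 higher (2.61, adjusted p = 0.0537) in Kmt2c KO, and each of these calls was lost without replicate 1 or 2 of either group. In 168FARN Kmt2d KO no marker was called without the block, and with it ABCC9 (6.55, adjusted p = 7.09e-04) and COL3A1 (0.85, adjusted p = 0.0720) were called higher. ABCC9 had 0, 0 and 2 counts in 168FARN WT and 70, 23 and 50 in Kmt2d KO. The part of these marker shifts in the results for TPM2, DES and the other genes was not tested.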

How the data were processed

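PolyA RNA of 18 libraries was sequenced after mRNA library preparation. The deposited values were raw gene counts, 1 table per line, which the authors made with STAR on mm9 in the VIPER pipeline. The strand setting and the annotation used for counting were not given in the sources used here. Differences were tested with edgeR 4.0.16 in R 4.3.3 (quasi-likelihood, TMM, filterByExpr with a minimum count of 10, Benjamini-Hochberg adjustment) on the 9 libraries of a line, or on all 18 libraries between lines. Calls needed an adjusted p below 0.1 together with a log2 fold change beyond 0.6 in either direction. Alternatives included DESeq2 1.42.0, other scalings, no filter, leaving out each library and a replicate block. Trace genes were compared by a two-sided exact permutation test. The edgeR test without the block was run on simulated data first, and the permutation test was not.

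Same-numbered libraries deviated together in both lines (r from 0.65 to 0.90 in 168FARN and from 0.35 to 0.72 in 67NR). The study's methods treat collection times as batches for its heatmaps, while its tests of differential expression used genotype as the factor. The sample labels give replicate numbers but no collection times. Taking the numbers to pair the libraries was therefore a choice made here and not the design of the study's tests. The members and gene lists were chosen with earlier results of these data known. Of each other list, up to 3 called genes in each direction with the largest change in a KO were named by rule, together with paralogues of the members. Further genes, among them TLN1, ZYX, VCL, FLNA, ACTN1, MYLK, ELK3, LMOD1, KCNMB1, MYOCD, MKL1, MKL2 and VIM, were named after their values were seen.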

Additional observations from a re-analysis of the deposited data

Results flagged for a closer look

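The effect of KO differed between lines, by an interaction test over all libraries, for the genes given here as the effect in 67NR minus that in 168FARN on the log2 scale. With the replicate block, this held for TPM2 in Kmt2c KO (1.90, adjusted p = 0.00584) and in Kmt2d KO (1.84, adjusted p = 0.00921) and for CNN2 in Kmt2d KO (-0.84, adjusted p = 0.00377). With genotype and line alone and all libraries, none of these 3 was called, although TPM2 was called in both without 67NR WT replicate 3 (3.04 and 2.99).

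Of the other genes, without the block, DES differed by 3.68 for Kmt2c (adjusted p = 0.0212) and 4.12 for Kmt2d (adjusted p = 0.0163), and MYH3 by 4.94 (adjusted p = 4.41e-05) and 5.92 (adjusted p = 1.82e-05). SMTN differed by 1.25 for Kmt2c (adjusted p = 0.0289). Values below 0 were found for NEXN (-3.84, adjusted p = 0.00145, and -2.90, adjusted p = 0.0153), TNNT2 (-3.35, adjusted p = 0.0217, and -3.76, adjusted p = 0.0150), CSRP1 (-1.75, adjusted p = 0.0115, and -1.40, adjusted p = 0.0550) and PDLIM7 (-1.66, adjusted p = 0.00591, and -1.60, adjusted p = 0.0111), for Kmt2c and Kmt2d in turn. For Kmt2c the myosins MYH10 (-1.91, adjusted p = 0.00481) and MYH14 (-1.86, adjusted p = 0.0783) also differed.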

How the results depend on the processing

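Of 753 member fold changes under an alternative, 681 kept their direction and their side of the threshold, 9 lost a call, 20 gained one and 43 turned direction, none of the 43 being called to begin with. Fold changes with no value in the main fits, such as those of TAGLN within 67NR, are outside this tally, although calls of TAGLN enter the counts of called members below. TAGLN was called lower in both KOs of 67NR without 67NR WT replicate 3, and also with only replicates 1 and 2. It was not called in a KO of 67NR when any one library of that KO was left out, nor with no filter on low counts. DESeq2 gave TPM2 no adjusted p in 3 fits over both lines. With the replicate block, the number of called members went from 0 to 2 in 67NR Kmt2d KO, and from 0 to 1 and 2 in the interactions for Kmt2c and Kmt2d, and all genes called went from 44 to 886 and from 35 to 723 in 168FARN Kmt2c and Kmt2d KO. With only replicates 1 and 2, an alternative chosen after seeing the data, the count became 1 in 168FARN Kmt2c KO, 2 and 3 in 67NR Kmt2c and Kmt2d KO, and 2 in each interaction. In 67NR Kmt2c KO the 1 call became 0 at an adjusted p under 0.05 (with a fold threshold of 0.5 or none), with no filter, and with only the 6 compared libraries. Total counts in place of TMM gave 1 call in 67NR Kmt2d KO and in its interaction, and moved the median of all genes to -0.21 in 67NR Kmt2d KO (TMM -0.02) and to 0.19 between both KOs of 67NR (TMM 0.01), and in 168FARN Kmt2c and Kmt2d KO to -0.07 and -0.08 (TMM 0.01 in each). Leaving out 1 library gave 0 to 2 calls in each KO of 67NR and 0 to 1 in each interaction.

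Most directions that turned were near 0, and those furthest from it were TAGLN between WT lines (-0.28) and TPM1 in the Kmt2c interaction (0.25). With total counts, which shift all genes alike, they were CNN2 -0.07 and SRF -0.05 in 168FARN Kmt2c KO, TPM1 -0.07 and TPM2 -0.05 in 168FARN Kmt2d KO, CALD1 0.04 between both KOs of 67NR, and TPM1 0.16 and SRF 0.02 in the Kmt2c interaction. With replicates 1 and 2 alone they were TPM1 -0.05 in 168FARN Kmt2d KO, CNN2 0.08 between both KOs of 168FARN, TPM1 0.04 and SRF 0.05 in 67NR Kmt2c KO, and TPM1 0.21 in the Kmt2c interaction. Leaving out 1 library gave CNN2 -0.01 to 0.08 and SRF -0.09 to 0.24 in 168FARN Kmt2c KO. In 168FARN Kmt2d KO it gave CNN2 -0.05 to 0.29, TPM1 -0.13 to 0.14, TPM2 -0.02 to 0.17, CALD1 -0.08 to 0.06 and SRF -0.07 to 0.32. Between both KOs of 168FARN it gave CNN2 -0.28 to 0.08 and SRF -0.26 to 0.10, in 67NR Kmt2c KO SRF -0.16 to 0.03, between WT lines TAGLN -0.28 to 1.5, and in the Kmt2c interaction TPM1 -0.09 to 0.25 and SRF -0.26 to 0.07. The cause was not tested.

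Depth limits the 5 trace genes, whose counts lie near the floor, and 3 libraries a group limit all tests.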

Other observations

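A few markers of vessel cells were called although their lists stayed near 0. ABCC9, a potassium channel subunit used as a pericyte marker, was higher in 67NR Kmt2c KO (4.13, adjusted p = 0.00355) and Kmt2d KO (4.26, adjusted p = 0.00497). CDH5, which encodes VE-cadherin of endothelial cells, was higher in 67NR Kmt2c KO (2.60, adjusted p = 0.00484) and Kmt2d KO (1.75, adjusted p = 0.0398). Among basal markers, TRP63 and KRT14 were lower in 67NR Kmt2c KO (-5.37, adjusted p = 0.0161, and -3.22, adjusted p = 0.0532).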
